A study of Homo sapiens with 6 samples.

Results

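The genes that carry the WNT signal from one cell to the receptors of the next were examined in parental and *ZKSCAN3*-deficient HCT116 cells, a human colon carcinoma line. The 45 genes were taken by symbol from a fixed list and are 45 of the 46427 genes in the deposited table. They comprise 16 WNT ligands, the ligand transporter *WLS*, 10 Frizzled receptors, 5 co-receptors, 8 secreted antagonists, the 2 Kremen receptors of Dickkopf proteins and the 3 Dishevelled transducers. Parental cells with intact *ZKSCAN3* (*ZK3*-WT) and *ZK3*-KO cells were sequenced as 3 biological replicates each, and both were kept in DMEM with 10% FBS. *ZK3*-KO cells had been edited on both alleles with CRISPR/Cas9 aimed at the start codon in the first exon, and were derived by single-cell selection in puromycin. A change that came with the clone and a change that came with the genotype therefore cannot be told apart.

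WNT proteins are lipid-modified, carried to the cell surface by Wntless (*WLS*), and bound by a Frizzled receptor together with LRP5 or LRP6, after which Dishevelled is recruited and β-catenin escapes destruction. Other ligands act through Frizzled with ROR1, ROR2 or RYK without β-catenin. SFRP proteins and WIF1 bind the ligands outside the cell, while DKK1 and DKK4 bind LRP5 and LRP6, which Kremen proteins help to remove from the surface. In the colon, WNT signals maintain the crypt stem cells, and HCT116 cells carry a stabilizing mutation of β-catenin, so that the pathway is active below these receptors.

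The libraries held 60827060 to 69739215 counted reads each. Levels are given as TPM, the authors' values corrected for library size and transcript length. Values of 3 libraries are listed in the order of replicates 1, 2 and 3. Log2 fold changes are *ZK3*-KO over *ZK3*-WT from edgeR's quasi-likelihood test on the read counts, each with its standard error (SE) and a false discovery rate (FDR) adjusted by the Benjamini-Hochberg method over the 18366 tested genes. The targeted gene *ZKSCAN3* stood at 12.5, 10.8 and 8.85 TPM in the *ZK3*-WT libraries. In the *ZK3*-KO libraries it stood at 11.8, 11.3 and 5.05 TPM, so its read level did not separate the genotypes. Counts per gene cannot show an edit of the start codon. The paper reports that its knockout clones were identified by sequencing of genomic DNA. Of 12 colon epithelial markers 9 averaged at least 1 TPM, *VIL1*, *CDX1* and *LGALS4* being near 0, against 1 of 8 fibroblast, 1 of 8 immune and 0 of 5 endothelial markers. *ZK3*-KO replicate 3 stood apart from the other *ZK3*-KO libraries, with correlations of log2 CPM across genes of 0.973 and 0.961 against 0.993 between replicates 1 and 2, so the fold changes that moved most without it are given both ways. In bulk RNA, fewer cells that express a gene and less RNA per cell cannot be told apart.

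HCT116 cells expressed most of the machinery that sends and receives WNT signals but, of the secreted antagonists, only *DKK1* above 1 TPM. In *ZK3*-WT cells 29 of the 45 genes averaged at least 1 TPM, namely 10 ligands, *WLS*, 7 Frizzled receptors, all 5 co-receptors, *DKK1*, both Kremen genes and all 3 Dishevelled genes, and in *ZK3*-KO cells 28 did. The highest means were those of *DVL1* at 86.1 ± 9.18 TPM, *DKK1* at 65.6 ± 8.54, *WLS* at 55.3 ± 5.42, *RYK* at 51.8 ± 3.18 and *FZD6* at 47.2 ± 7.18 (SD, n = 3). The libraries of neighbours in this order overlapped, except that every *DVL1* value was above every *DKK1* value. The 10 genes that did not pass the filter on low counts were *WNT5A*, *WNT8B*, *WNT9B*, *FZD10*, *SFRP1*, *SFRP2*, *SFRP4*, *SFRP5*, *DKK3* and *WIF1*. Of these, *FZD10*, *SFRP1*, *SFRP2*, *SFRP5* and *WIF1* had 0 reads in all 6 libraries, where 0 reads allow a level of up to 0.043 to 0.0493 CPM per library, counting error only.

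**Figure D1:**
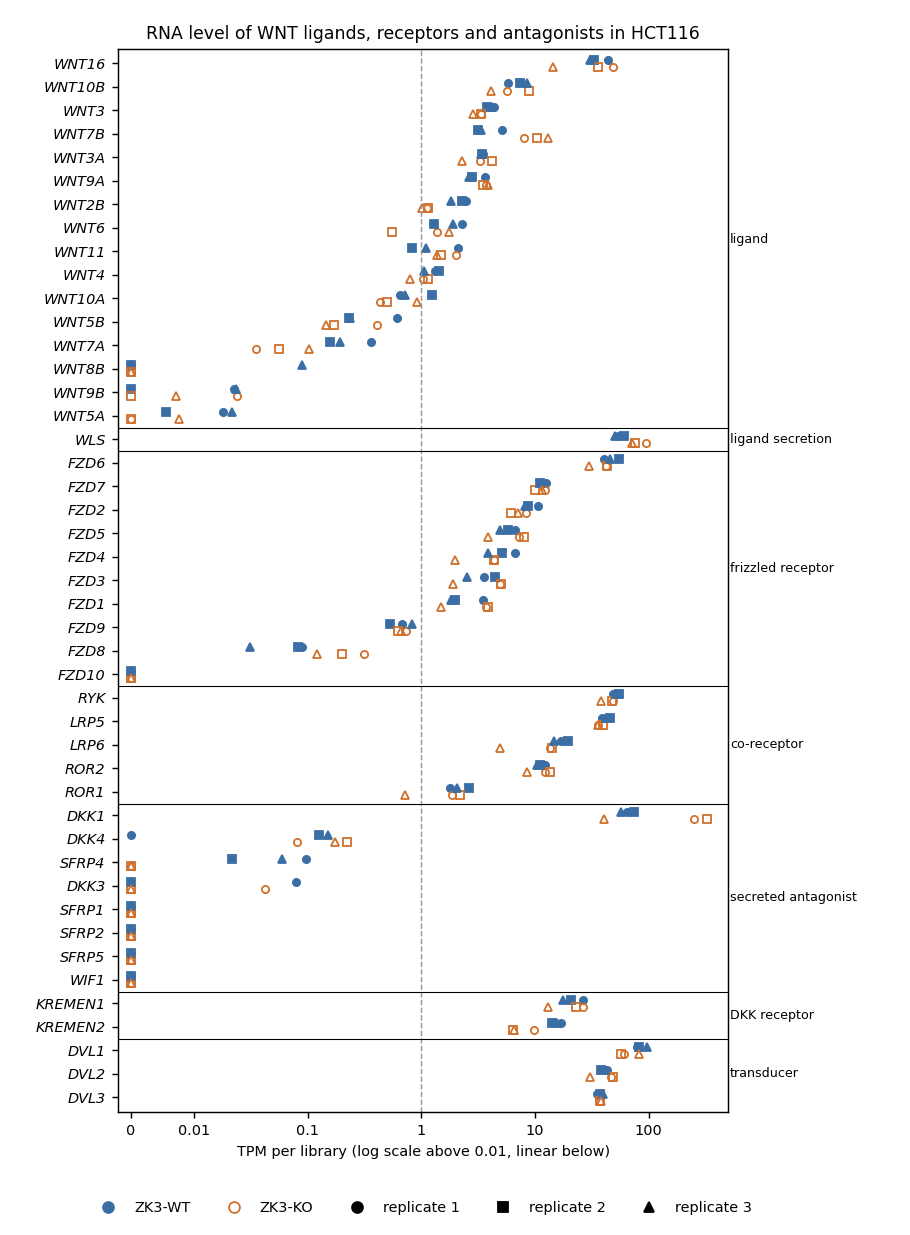
Level of each of the 45 genes in each library, as deposited TPM on a log axis with values at 0 set apart, grouped by role; blue points are *ZK3*-WT and orange points *ZK3*-KO libraries. Among the secreted antagonists *DKK1* lies between 40.4 and 325 TPM while the other 7 reach at most 0.221 TPM.

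With all 6 libraries, 0 of the 35 tested genes reached an FDR under 0.05 with edgeR. Among all tested genes 2.05% passed, of which 0.817% were higher and 1.23% lower in *ZK3*-KO cells. An unadjusted p-value under 0.05 was found for 7 of the 35 genes, which is 20% against 18.4% of all genes, and these were *WNT7B*, *WLS*, *FZD8* and *DKK1*, higher in *ZK3*-KO cells, and *KREMEN2*, *WNT2B* and *WNT7A*, lower. The groups did not overlap for 3 genes that were higher in *ZK3*-KO cells (8.57%, against 12.7% of all genes) and for 6 that were lower (17.1%, against 13.8%). The median log2 fold change was -0.04, beside 0.02 over all genes, with 17 positive and 18 negative values. DESeq2 called 5 genes, which is 14.3% where it called 8.2% of all genes, and with the replicate number as a block edgeR called 1 (2.86%, against 2.51%). At an FDR of 0.1, 3 genes passed (8.57%, against 4.61%). Limma called 0 of the 35 genes on log2(TPM + 1) and on log2(TPM + 0.1), where 2.08% and 1.93% of all genes were called. Without *ZK3*-KO replicate 3, 7 of 35 genes passed the FDR in edgeR's test, which is 20% where 15.1% of all genes did, and these were *DKK1*, *WNT7B* and *WLS*, higher, and *KREMEN2*, *WNT2B*, *WNT7A* and *DVL1*, lower. The shares of the list thus lay below those over all genes in some fits and above them in others.

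**Figure D2:**
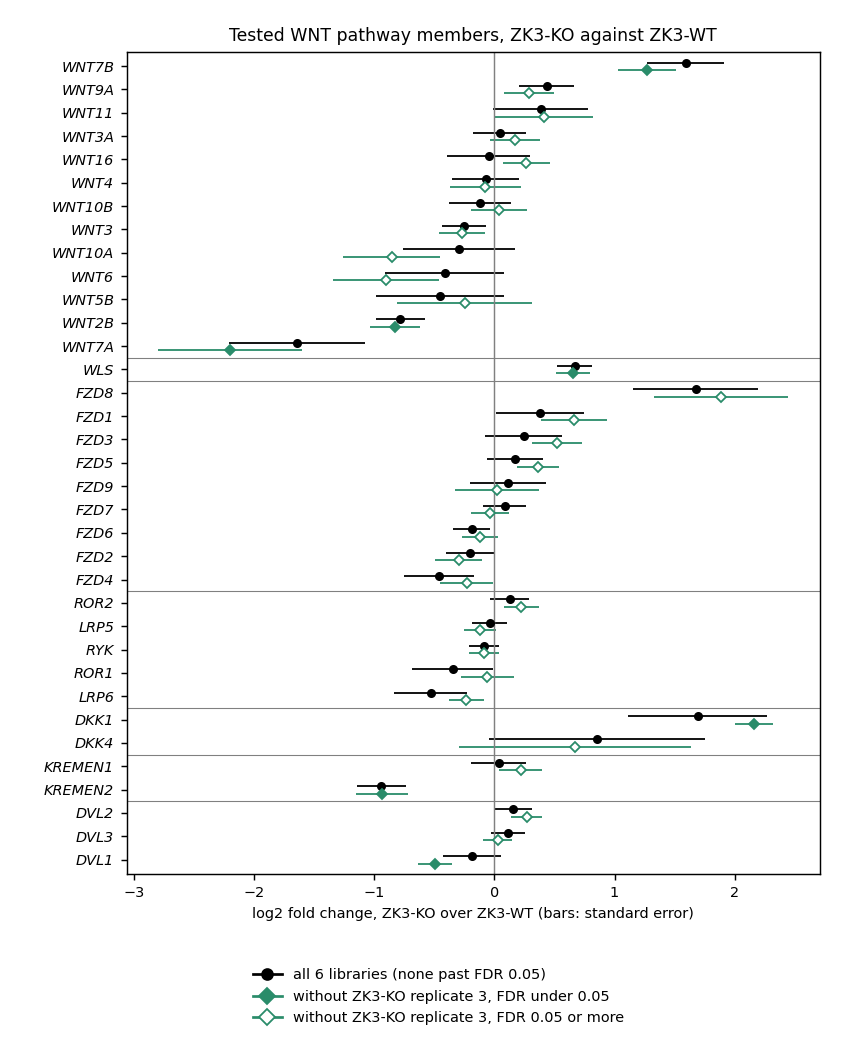
Log2 fold change of the 35 tested genes, *ZK3*-KO over *ZK3*-WT, with bars of 1 standard error from edgeR's quasi-likelihood fit and, beside it, the value without *ZK3*-KO replicate 3. The values with all libraries run from -1.64 for *WNT7A* to 1.69 for *DKK1*, and no gene passes an FDR of 0.05 with all 6 libraries.

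*WNT16*, a ligand best known from bone and skin, had the highest TPM of the 16 ligands in every library. It took 57.5%, 54.1% and 50.9% of the summed TPM of the 16 ligands in the *ZK3*-WT libraries and 61.3%, 50.4% and 30.7% in the *ZK3*-KO libraries. Its own level was 43.7, 33.1 and 30.2 TPM in *ZK3*-WT cells and 48.3, 36.0 and 14.4 TPM in *ZK3*-KO cells. The groups overlapped, and the lowest library was *ZK3*-KO replicate 3. The log2 fold change was -0.05 (SE 0.34, FDR 0.96), and 0.26 without that library (FDR 0.385).

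*WNT10B*, which signals through β-catenin and restrains fat cell formation, followed *WNT16* in *ZK3*-WT cells. It stood at 5.83, 7.45 and 8.53 TPM in *ZK3*-WT and at 5.71, 8.94 and 4.14 TPM in *ZK3*-KO cells, with overlapping groups and a log2 fold change of -0.12 (SE 0.26, FDR 0.844). *WNT3*, the ligand that Paneth cells supply to intestinal stem cells, stood at 4.35, 3.75 and 4.20 TPM in *ZK3*-WT and 3.33, 3.35 and 2.83 TPM in *ZK3*-KO cells. Each *ZK3*-KO library was below each *ZK3*-WT library, but the log2 fold change of -0.25 (SE 0.18) had an FDR of 0.515. *WNT3A*, its close relative and the ligand most used to stimulate cells in culture, averaged 3.42 ± 0.0884 TPM in *ZK3*-WT cells and 3.26 ± 0.964 TPM in *ZK3*-KO cells (SD, n = 3), with overlapping groups and an FDR of 0.94.

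*WNT7B* differed most among the expressed ligands. The gene (NCBI Gene 7477), which acts through β-catenin in lung and other epithelia, lies on the reverse strand at chr22:46316246-46373042 of GRCh37. It stood at 5.14, 3.14 and 3.38 TPM in the *ZK3*-WT libraries and at 8.03, 10.4 and 13.1 TPM in the *ZK3*-KO libraries, so every *ZK3*-KO library was above every *ZK3*-WT library. The log2 fold change was 1.59 (SE 0.32), a 3.01-fold higher level with an FDR of 0.056, just outside the threshold. It was 1.27 with an FDR of 0.0126 without *ZK3*-KO replicate 3, and its adjusted p in DESeq2 was 0.00014. In all other fits the FDR was 0.0552 to 0.273. The share of *WNT7B* in the summed ligand TPM was 5.14% to 6.76% in *ZK3*-WT cells and 10.2%, 14.6% and 28.1% in the *ZK3*-KO libraries, the highest share being in the library where *WNT16* was lowest.

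**Figure D3:**
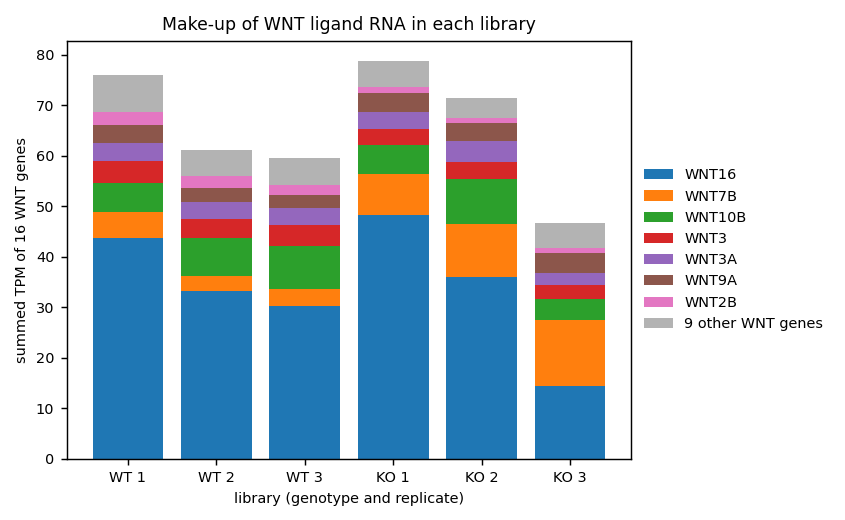
Summed TPM of the 16 WNT ligands, as stacked bars for each library, with the most abundant ligands drawn singly and the rest together. Of this sum, *WNT16* takes 50.9% to 57.5% in *ZK3*-WT cells and 30.7% to 61.3% in *ZK3*-KO cells. *WNT7B* takes 5.14% to 6.76% in *ZK3*-WT cells and 10.2% to 28.1% in *ZK3*-KO cells.

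*WNT2B* and *WNT7A* were lower in all 3 *ZK3*-KO libraries than in any *ZK3*-WT library. *WNT2B* (NCBI Gene 7482), a ligand of the intestinal mesenchyme, lies on the forward strand at chr1:113009163-113072787. It stood at 2.46, 2.28 and 1.82 TPM in *ZK3*-WT cells and at 1.12, 1.15 and 1.01 TPM in *ZK3*-KO cells, for a log2 fold change of -0.78 (SE 0.20, FDR 0.108), and passed the threshold in DESeq2 (0.00688) and without *ZK3*-KO replicate 3 (-0.83, FDR 0.031). *ST7L* overlaps it on the opposite strand and was counted at 510 to 655 reads in all libraries. *WNT7A*, a paralog of *WNT7B* known from limb patterning, was found at far lower levels, with 44, 21 and 26 reads in *ZK3*-WT and 5, 8 and 15 reads in *ZK3*-KO cells. These counts gave a log2 fold change of -1.64 (SE 0.57, FDR 0.194), and -2.20 (FDR 0.0395) without *ZK3*-KO replicate 3.

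The sequences just before the starts of *WNT2B* and of *DKK1*, an antagonist described further on, are shown because both genes had an unadjusted p-value under 0.05 and lay on opposite sides of 0, and because TCF and LEF, the factors that carry β-catenin to DNA, bind known letters. They are from RefSeq's promoter table (GRCh38.p14). The letters searched were CTTTGAA for the first pattern, CTTTGAT for the second, CTTTGTA for the third and CTTTGTT for the fourth, each on both strands and none of them part of another. Each sequence is 250 bases long, ends at the base before RefSeq's start of the gene, was found at only that place in GRCh37, and is printed 5′ to 3′ on the strand of the gene with these letters in capitals. *WNT2B* is chr1:113008913-113009162 and *DKK1* chr10:54073791-54074040, both on the forward strand.
WNT2B: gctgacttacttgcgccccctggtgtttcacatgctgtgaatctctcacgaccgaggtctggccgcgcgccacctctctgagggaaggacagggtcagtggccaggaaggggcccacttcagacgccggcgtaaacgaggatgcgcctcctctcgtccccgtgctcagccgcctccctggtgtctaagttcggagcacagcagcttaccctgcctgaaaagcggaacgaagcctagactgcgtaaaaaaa
DKK1: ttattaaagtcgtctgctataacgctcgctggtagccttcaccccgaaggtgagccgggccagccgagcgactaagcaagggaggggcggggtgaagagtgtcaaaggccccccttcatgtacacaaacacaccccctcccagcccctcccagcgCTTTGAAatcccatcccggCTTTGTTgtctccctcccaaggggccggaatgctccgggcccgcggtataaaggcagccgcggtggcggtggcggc
*DKK1* held 2 matches, and the *WNT2B* window held none of these letters. *WLS* and *FZD8*, which were higher in *ZK3*-KO cells, and *WNT7A*, which was lower, also had an unadjusted p-value under 0.05. Their windows held no match either. *WNT7B* and *KREMEN2* were not among the genes that matched the table. Among the 31 genes of the 45 that matched the table, *DKK1* was the 1 with a match (3.2%), whereas 12.0% of all 35116 promoters had at least 1. A match describes the letters and not a bound site.

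The remaining ligands were low and did not separate. *WNT9A* averaged 3.01 ± 0.522 TPM in *ZK3*-WT and 3.70 ± 0.216 TPM in *ZK3*-KO cells, for a log2 fold change of 0.43 (SE 0.23, FDR 0.36). *WNT6*, *WNT11* and *WNT4* averaged 1.84, 1.33 and 1.27 TPM in *ZK3*-WT cells, with FDR values of 0.711, 0.654 and 0.918. *WNT10A* and *WNT5B* were below 1 TPM on average, and *WNT5A*, the ligand best known for acting without β-catenin, had 7, 3 and 9 reads in *ZK3*-WT and 0, 0 and 4 reads in *ZK3*-KO cells. *WNT9B* had at most 4 reads, and *WNT8B* had 7 reads in *ZK3*-WT replicate 3 and 0 elsewhere.

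Several ligand genes are neighbours on GRCh37 with no protein-coding gene between them. *WNT9A* and *WNT3A* lie 59.1 kb apart on chromosome 1, *WNT6* and *WNT10A* 6.6 kb apart on chromosome 2, and *WNT3* and *WNT9B* 46 bases apart on chromosome 17. The levels of *WNT9A* and *WNT3A* overlapped in both genotypes. *WNT3* was expressed in every library at 2.83 TPM or more while its neighbour *WNT9B* reached at most 0.0236 TPM. *WNT6* and *WNT10A* were both more than 1 log2 unit higher in *ZK3*-KO replicate 3 than the mean of *ZK3*-KO replicates 1 and 2, by 1.18 and 1.13 on the log2 CPM scale, and were the only tested genes of the 45 to be so.

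*WLS* (NCBI Gene 79971), the carrier without which lipid-modified WNT proteins are not released, was one of the most abundant genes of the list and was higher in *ZK3*-KO cells. It lies on the reverse strand at chr1:68564156-68698803 and stood at 53.6, 61.3 and 50.8 TPM in the *ZK3*-WT libraries and at 95.7, 76.3 and 70.8 TPM in the *ZK3*-KO libraries. The groups did not overlap. The log2 fold change of 0.67 (SE 0.15), a 1.59-fold higher level, had an FDR of 0.0738. It passed in DESeq2 (adjusted p 0.00224) and without *ZK3*-KO replicate 3 (0.65, FDR 0.0202), and had an FDR of 0.0738 to 0.326 in all other fits. The antisense gene *GNG12-AS1* on the other strand had 10 to 31 reads per library, against 4230 or more for *WLS*.

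**Figure D4:**
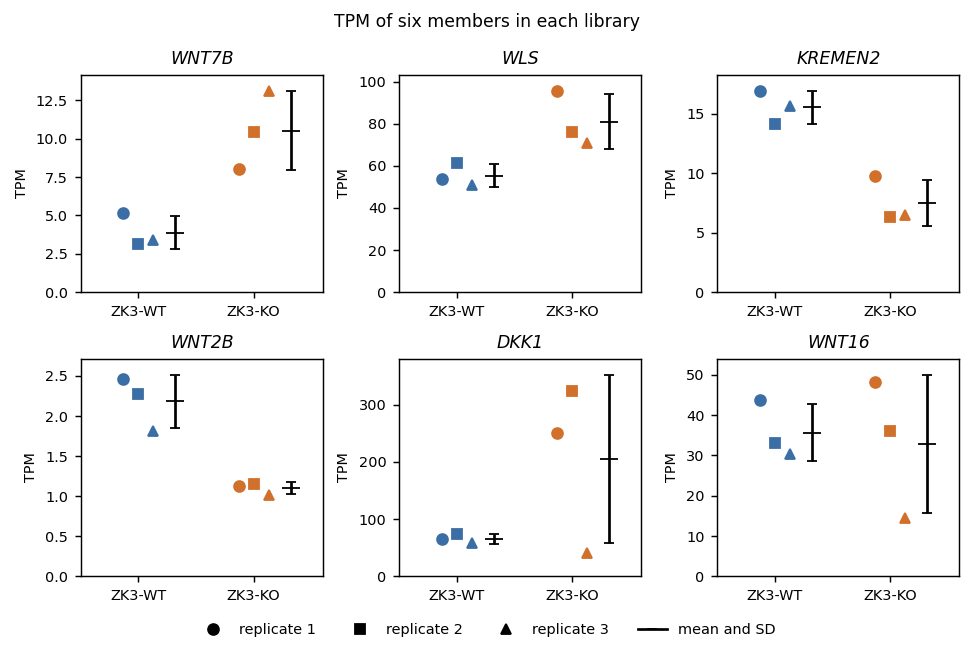
TPM of *WNT7B*, *WLS*, *KREMEN2*, *WNT2B*, *DKK1* and *WNT16* in each library, with symbols for the replicate number and the mean and SD of the 3 libraries beside them. *WNT7B* and *WLS* are higher and *KREMEN2* and *WNT2B* lower in every *ZK3*-KO library, while *DKK1* and *WNT16* in *ZK3*-KO replicate 3 fall below every *ZK3*-WT library.

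Among the Frizzled receptors, *FZD6* was the main transcript and made up 47.9% to 59.2% of their summed TPM in *ZK3*-WT cells. *FZD6*, a receptor known for planar polarity of hair and skin, stood at 40.7, 54.9 and 45.8 TPM in *ZK3*-WT and at 42.4, 42.9 and 29.7 TPM in *ZK3*-KO cells, with overlapping groups and a log2 fold change of -0.19 (SE 0.15, FDR 0.559). *FZD7*, a receptor of intestinal stem cells, was even across the genotypes at 12.6, 11.1 and 11.1 TPM against 12.2, 10.1 and 11.5 TPM (log2 fold change 0.09, SE 0.18, FDR 0.837). *FZD2* stood at 10.6, 8.65 and 8.10 TPM against 8.37, 6.17 and 7.14 TPM, also overlapping (-0.20, SE 0.20, FDR 0.647).

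The other Frizzled receptors were lower. *FZD4*, the receptor of Norrin in retinal vessels, had 6.63, 5.18 and 3.85 TPM in *ZK3*-WT and 4.38, 4.35 and 1.97 TPM in *ZK3*-KO cells, for a log2 difference of -0.47 (SE 0.29, FDR 0.441). *FZD5*, *FZD3* and *FZD1* averaged 5.81, 3.50 and 2.45 TPM in *ZK3*-WT cells and overlapped between the genotypes, *FZD9* stayed below 1 TPM, and *FZD10* had no read. *FZD8* was near the limit of detection, with 9, 9 and 4 reads in *ZK3*-WT and 32, 22 and 15 reads in *ZK3*-KO cells. Its groups did not overlap, and the log2 fold change of 1.67 (SE 0.52) had an FDR of 0.157, and of 0.0526 without *ZK3*-KO replicate 3. No Frizzled gene passed the threshold in any of the fits.

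All 5 co-receptors were expressed. *RYK*, a kinase-like receptor of WNT5A, stood at 48.7, 55.1 and 51.7 TPM in *ZK3*-WT and at 48.1, 47.6 and 38.5 TPM in *ZK3*-KO cells. The groups did not overlap, by a narrow margin, and the log2 fold change was -0.09 (SE 0.12, FDR 0.751). *LRP5* had 38.7, 45.5 and 42.1 TPM in *ZK3*-WT against 36.2, 39.9 and 36.0 TPM in *ZK3*-KO cells, with overlapping groups and a log2 fold change of -0.04 (SE 0.14, FDR 0.916). The partial copy *LRP5L*, whose reads may be split with *LRP5*, was counted at 754 to 1245 reads per library.

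*LRP6*, the co-receptor that together with *LRP5* passes the signal to β-catenin, stood at 17.1, 19.6 and 14.9 TPM in *ZK3*-WT and at 13.6, 14.1 and 4.91 TPM in *ZK3*-KO cells. Each *ZK3*-KO library was below each *ZK3*-WT library, and *ZK3*-KO replicate 3 was lowest by far. The log2 fold change was -0.53 (SE 0.30, FDR 0.399) and -0.23 (FDR 0.304) without that library. *ROR2* averaged 11.3 ± 1.02 TPM in *ZK3*-WT and 11.4 ± 2.59 TPM in *ZK3*-KO cells, and *ROR1* 2.15 ± 0.419 and 1.595 ± 0.780 TPM (SD, n = 3). Both receptors bind WNT5A, of which few reads were found, and both overlapped between the genotypes.

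*DKK1* (NCBI Gene 22943), an inhibitor that blocks LRP5 and LRP6 and is itself induced by β-catenin, accounted for at least 99.6% of the antagonist TPM in every library. It lies on the forward strand at chr10:54074041-54077802. *DKK1* stood at 64.6, 74.6 and 57.6 TPM in the *ZK3*-WT libraries and at 250.3, 325 and 40.4 TPM in the *ZK3*-KO libraries. *ZK3*-KO replicates 1 and 2 were far above every *ZK3*-WT library, and *ZK3*-KO replicate 3 was below every one of them. The log2 fold change was 1.69 (SE 0.58, FDR 0.19) with all libraries and 2.16 (FDR 0.000207) without *ZK3*-KO replicate 3. DESeq2 called *DKK1* with all libraries (adjusted p 0.0263), and over the 6 fits that leave out a library its log2 fold change ran from 1.22 to 2.16. Outside DESeq2 and the fit without *ZK3*-KO replicate 3, its FDR was 0.173 to 0.493.

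Other measures were also higher in *ZK3*-KO replicates 1 and 2 than in any *ZK3*-WT library. The summed TPM of 12 S phase genes was 896 to 1310 in *ZK3*-WT cells, 2020 and 2800 in *ZK3*-KO replicates 1 and 2 and 572 in *ZK3*-KO replicate 3. The antisense gene *PRKG1-AS1*, which overlaps *DKK1* on the other strand, had 24, 35 and 27 reads in *ZK3*-WT and 90, 72 and 32 reads in *ZK3*-KO cells. Only the S phase sum also fell below every *ZK3*-WT library in *ZK3*-KO replicate 3. The part of either measure in the *DKK1* values was not tested.

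The other antagonists were nearly silent in both genotypes. *DKK4*, like *DKK1* a target of β-catenin, had at most 0.221 TPM, at 0, 0.126 and 0.151 TPM in *ZK3*-WT and 0.081, 0.221 and 0.174 TPM in *ZK3*-KO cells (log2 fold change 0.86, SE 0.90, FDR 0.665). *SFRP4* had 9, 2 and 6 reads in *ZK3*-WT and 0 reads in each *ZK3*-KO library, too few to be tested, and *DKK3* had 7 reads in *ZK3*-WT replicate 1, 4 in *ZK3*-KO replicate 1 and 0 elsewhere. Genes of the *SFRP* family and *WIF1* are known to be silenced by methylation of CpG-rich promoters in colorectal cancer, and methylation was not measured here. The promoters of *SFRP2*, at chr4:154710236-154710485, of *SFRP5*, at chr10:99531757-99532006, and of *WIF1*, at chr12:65515086-65515335, all on the reverse strand of GRCh37, are shown because these genes were without reads, with each CG in capitals.
SFRP2: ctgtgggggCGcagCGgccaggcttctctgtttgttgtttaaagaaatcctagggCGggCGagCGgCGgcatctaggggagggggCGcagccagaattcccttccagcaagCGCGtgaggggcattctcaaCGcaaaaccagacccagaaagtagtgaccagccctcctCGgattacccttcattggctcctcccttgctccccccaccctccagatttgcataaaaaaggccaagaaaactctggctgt
SFRP5: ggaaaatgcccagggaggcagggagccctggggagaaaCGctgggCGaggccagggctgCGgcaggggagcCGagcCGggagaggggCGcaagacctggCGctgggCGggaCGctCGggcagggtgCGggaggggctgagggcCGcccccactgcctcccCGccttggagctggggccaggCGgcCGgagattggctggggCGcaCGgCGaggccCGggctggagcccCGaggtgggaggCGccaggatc
WIF1: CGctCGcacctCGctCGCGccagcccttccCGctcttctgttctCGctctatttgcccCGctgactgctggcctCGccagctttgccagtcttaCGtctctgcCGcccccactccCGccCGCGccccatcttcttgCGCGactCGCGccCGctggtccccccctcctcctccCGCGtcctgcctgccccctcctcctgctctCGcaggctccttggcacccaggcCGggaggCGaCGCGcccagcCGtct
These windows of 250 bases held 11, 21 and 27 CG pairs. The 31 matched genes had a median of 24, against 11 over all promoters, and *DKK1*, which was expressed, had 18. The *SFRP2* window was therefore no richer in CG than the median promoter.

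Kremen proteins bind DKK1 on the cell surface, and both of their genes were expressed. *KREMEN2* (NCBI Gene 79412) lies on the forward strand at chr16:3014217-3018381 and stood at 16.9, 14.1 and 15.6 TPM in the *ZK3*-WT libraries and at 9.75, 6.35 and 6.48 TPM in the *ZK3*-KO libraries. The groups did not overlap, and its level was 1.92-fold lower in *ZK3*-KO cells, for a log2 fold change of -0.94 (SE 0.21, FDR 0.0724). *KREMEN2* was the 1 gene of the list to pass with the replicate number as a block (-0.96, FDR 0.0422). It also passed in DESeq2 (adjusted p 0.00131) and without *ZK3*-KO replicate 3 (-0.94, FDR 0.023). In all other fits *KREMEN2* had an FDR of 0.0633 to 0.275. *PKMYT1* overlaps it on the opposite strand, with 1908 to 2870 reads in *ZK3*-WT cells and 3708, 5339 and 1998 reads in the *ZK3*-KO libraries. The libraries are stranded, but whether the counting used strand is not given in the sources used here. *KREMEN1* stood at 26.7, 20.9 and 17.8 TPM in *ZK3*-WT and at 26.5, 23.1 and 12.97 TPM in *ZK3*-KO cells, with overlapping groups and a log2 fold change of 0.03 (SE 0.23, FDR 0.958).

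The Dishevelled genes, which relay the signal from every Frizzled receptor, were all expressed at 30.3 TPM or more. *DVL1* stood at 78.9, 82.9 and 96.4 TPM in *ZK3*-WT and at 60.6, 56.8 and 83.0 TPM in *ZK3*-KO cells, so that *ZK3*-KO replicates 1 and 2 were below all *ZK3*-WT libraries and replicate 3 was not. Its log2 fold change of -0.19 (SE 0.24, FDR 0.733) became -0.50 (FDR 0.0447) without *ZK3*-KO replicate 3. *DVL2* had 43.1, 38.2 and 41.6 TPM in *ZK3*-WT against 47.1, 48.9 and 30.3 TPM in *ZK3*-KO cells (0.16, SE 0.16, FDR 0.644). *DVL3* was the steadiest at 35.5, 37.2 and 39.4 TPM against 37.3, 37.2 and 38.0 TPM (0.11, SE 0.14, FDR 0.719).

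The log2 CPM of *ZK3*-KO replicate 3 was below the mean of *ZK3*-KO replicates 1 and 2 for 18 of the 35 tested genes and above it for 17, with a median difference of -0.002 (0.011 over all tested genes). Its log2 CPM was more than 1 below the mean of the other *ZK3*-KO libraries for *DKK1* (by -2.50), *WNT16* (-1.22), *LRP6* (-1.16), *ROR1* (-1.09), *FZD3* (-1.05) and *FZD1* (-1.03), which is 17.1% of the tested genes of the list against 8.85% of all tested genes. It was more than 1 above for *WNT6* and *WNT10A*, or 5.71% against 9.67%. Without this library the log2 fold change of *WNT6* went from -0.41 to -0.90, that of *WNT10A* from -0.30 to -0.86 and that of *ROR1* from -0.35 to -0.06. Those of *FZD1* and *FZD3* went from 0.38 to 0.66 and from 0.24 to 0.52, and those of *FZD4* and *WNT5B* from -0.47 to -0.23 and from -0.45 to -0.25. None of these 7 genes passed the threshold in either fit. Over all genes this difference varied with transcript length, with medians of 0.22, 0.13, -0.02 and -0.30 in equal classes of genes whose median lengths were 1.26, 2.55, 4.11 and 7.08 kb. The rank correlation with length was -0.28 over 17808 genes and -0.24 over 34 genes of the list, given as a description, since all points share the same libraries. The lengths, as implied by the deposited FPKM values, were 2.00 kb for *DKK1*, 3.48 kb for *WNT16* and 10.88 kb for *LRP6*. They were 6.35 kb for *ROR1*, 15.13 kb for *FZD3* and 7.63 kb for *FZD1*. *WNT6* and *WNT10A*, which lay above, had lengths of 1.92 and 2.29 kb. What part length has in these values was not tested.

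**Figure D5:**
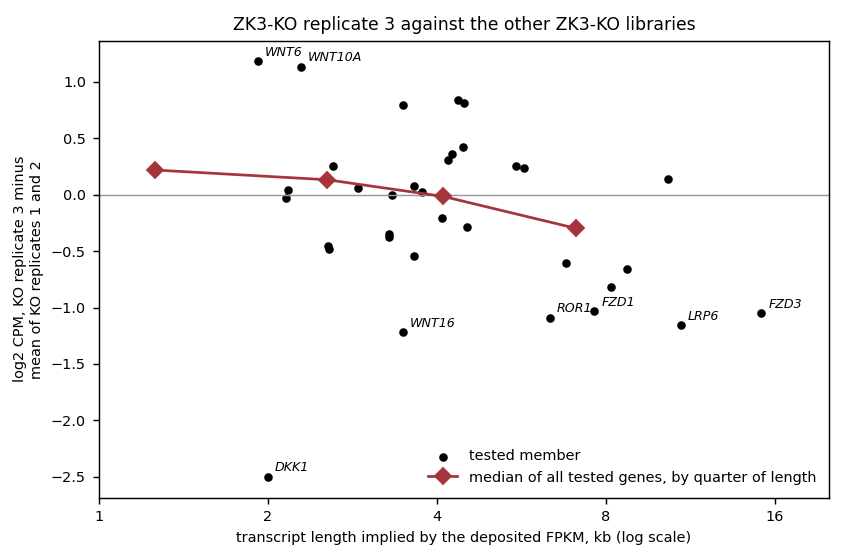
Difference of *ZK3*-KO replicate 3 from the mean of *ZK3*-KO replicates 1 and 2 in log2 CPM, against transcript length in kb on a log axis. Lengths are those implied by the deposited FPKM values. Points are tested genes of the list, shown with medians of equal length classes of all tested genes. The class medians go from 0.22 to -0.30, and *DKK1* lies lowest at -2.50.

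The pathway around these genes held 44 further genes on a fixed list, of ligand processing, R-spondin and receptor turnover, the β-catenin destruction complex, nuclear factors and planar polarity. Of these, 37 were tested and 2 passed the FDR threshold, where 2.05% of all tested genes passed. *RNF43*, a ubiquitin ligase that removes Frizzled receptors from the surface, fell in *ZK3*-KO cells from 50.2, 79.0 and 51.1 TPM to 17.3, 19.4 and 11.7 TPM (log2 fold change -1.87, SE 0.22, FDR 0.00992). Its FDR was 0.0679 without *ZK3*-KO replicate 1. *NKD2*, a Dishevelled-binding inhibitor, rose from 11.2, 9.99 and 11.3 TPM to 20.4, 20.4 and 16.5 TPM (0.94, SE 0.15, FDR 0.0282), and its FDR lay between 0.0745 and 0.174 when any library but *ZK3*-KO replicate 3 was left out. The median log2 fold change of the 37 genes was -0.08. *PORCN*, the enzyme that attaches the lipid to WNT proteins ahead of *WLS*, had a log2 fold change of -0.26 (FDR 0.511). Of 10 further family genes outside the list, such as *WNT1*, *FRZB* and *SOST*, 4 were tested and 0 passed in edgeR's test, with 1 at an unadjusted p-value under 0.05.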

How the data were processed

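Total RNA of 3 *ZK3*-WT and 3 *ZK3*-KO cultures was made into stranded polyadenylated libraries by the authors, who mapped reads with Bowtie 2 (Bowtie2 2.2.5 in the submitters' processing notes) to hg19 (GRCh37). The authors deposited read counts per gene, without normalization, together with FPKM values and TPM values. The FPKM values served only to derive transcript lengths. Each length is the one implied by counts and FPKM, as the median over libraries with at least 20 reads of the gene. TPM values give levels, and counts were tested. The paper's methods name an Ensembl annotation, while the deposited table lists NCBI Gene identifiers.

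Counts were tested in R 4.3.3 with edgeR 4.0.16 (filterByExpr, TMM factors of 0.91 to 1.03, quasi-likelihood F-test, genotype as the only factor, Benjamini-Hochberg FDR of 0.05), with limma 3.58.1 and DESeq2 1.42.0 as alternatives. The study used an ANOVA on TPM, for which the count test stands. Scripts were tested on simulated counts. The members and lists were chosen with earlier results of these data known. Given with values of all 6 libraries are genes past the FDR, the 3 most abundant of each role at 1 TPM or more, the 5 largest log2 fold changes each way, and genes with an unadjusted p-value under 0.05. All other genes named with values were chosen after their values were seen.

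Libraries of the same number deviated together from their genotype means (correlations across genes 0.441, 0.124 and 0.584, each over 0.1). Pairs of unlike numbers gave -0.516 to 0.273. The 0.273 was between *ZK3*-WT replicate 1 and *ZK3*-KO replicate 2, so for replicate 2 the pairing is not clear. The numbers were taken to pair the libraries in an alternative fit, although the sources do not say what they mark. Replicate pairs differed beyond sampling noise, with chi-square per degree of freedom of 41.5 or more. Alternatives were library totals alone, all genes with a read, DESeq2, limma on log2(TPM + 1) and log2(TPM + 0.1), the replicate block, each library left out and, added after seeing the data, an FDR of 0.1. Positions came from a GRCh37 annotation by symbol.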

Additional observations from a re-analysis of the deposited data

How the results depend on the processing

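The count of genes of the list past the threshold was 0 with all 6 libraries in edgeR's test (2.05% of all genes). The count was 5 with DESeq2 (8.2% of all genes), 1 with the replicate block that pairs the libraries by number (*KREMEN2*, 2.51% of all genes), 3 at an FDR of 0.1 (4.61%, added after seeing the data), and 0 with library totals alone, all genes with a read and limma at either pseudocount. Leaving out each library in turn gave 0 to 7 genes, and 7 came only without *ZK3*-KO replicate 3 (15.1% of all genes). The block changed no other call. The count of other pathway genes, 2 (2.05% of all genes), became 7 with DESeq2 (8.2% of all genes) and 10 without *ZK3*-KO replicate 3 (15.1% of all genes). It was 1 when any other library was left out, where 49 to 158 of all tested genes were called. Without *ZK3*-KO replicate 1, the gene called was neither *RNF43* nor *NKD2*. The median log2 fold change of the list, -0.04, was -0.108 with library totals alone, -0.124 with log2(TPM + 1), -0.169 with log2(TPM + 0.1) and -0.045 to 0.091 when libraries were left out, 0.091 being without *ZK3*-WT replicate 1. The median of all genes was -0.066, -0.082 and -0.128 under the first 3 of these settings, a shift in the same direction. For single genes 407 values kept their direction or stayed uncalled and 13 became called. *WNT7B*, *WLS*, *FZD8*, *DKK1*, *KREMEN2*, *WNT2B* and *WNT7A* kept their sign in every alternative. *KREMEN1* had another sign in 7 of 12 and *WNT3A* and *FZD7* in 4. The count of expressed genes, 29, stayed between 26 and 31 under other TPM thresholds. The cause of these shifts was not tested. *FZD8*, *WNT7A*, *WNT5B* and *DKK4* had 44 reads or fewer in each library.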

Other observations

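Some genes next to the receptors that did not pass the threshold had groups without overlap. Over all tested genes, 12.7% were without overlap and higher in *ZK3*-KO cells, and 13.8% were lower. Of the 37 tested genes of the other pathway list, 5 were without overlap and higher, and 4 were lower. *PTK7*, a co-receptor of planar polarity, stood at 125, 166 and 128 TPM in *ZK3*-WT and at 75.4, 76.4 and 67.0 TPM in *ZK3*-KO cells (log2 fold change -0.81, SE 0.16, FDR 0.0519 in edgeR's test, and 0.00927 without *ZK3*-KO replicate 3). *RSPO1*, a secreted agonist that keeps Frizzled receptors at the surface, had 65, 49 and 85 reads in *ZK3*-WT and 8, 0 and 0 reads in *ZK3*-KO cells (FDR 0.0725). *SCRIB*, a planar polarity scaffold, stood at 51.6, 51.4 and 55.8 TPM against 73.6, 96.3 and 56.2 TPM (0.61, SE 0.17, FDR 0.125). These genes were chosen after their values were seen.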
